A study of Mus musculus with 2 samples.

Results

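The 41 genes described here encode the machinery that stores, docks, releases and recycles neurotransmitter in the presynaptic terminal, together with a few trafficking relatives used by most cells. They were taken from a list of names, with no threshold on their levels, and were 41 of the 31253 genes in the table. By role, 6 belong to the ribbon synapse, 12 to the synaptic vesicle, 6 to the conventional SNARE and complexin group, 7 to the active zone, 5 to neuronal endocytosis and 5 to general trafficking. RNA was sequenced from 2 C57BL/6 samples. One was a passage 24 culture of mNRPCs, mouse neural retinal progenitor cells that the study isolated from adult retina and kept, by its methods, in N2/B27 medium with bFGF and the kinase inhibitor CHIR99021. The other was retina tissue of the same strain, whose age the labels do not give. The labels name no transgene or deletion for either sample. The mNRPC sample is a single culture of a single passage, and each group had 1 library, so no difference had a replicate check and no p-value was calculated.

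In a nerve terminal, vesicles filled with transmitter are docked at the active zone, where SNARE proteins on the vesicle and on the plasma membrane zip together, complexins clamp them, and calcium entering through voltage-gated channels acts on synaptotagmin to trigger fusion. Spent membrane is then taken back by dynamin, amphiphysin, endophilin and synaptojanin. Photoreceptors and bipolar cells of the retina use a ribbon synapse, a variant in which a plate of RIBEYE protein holds vesicles beside L-type calcium channels and in which syntaxin 3 and complexins 3 and 4 stand in for the forms used at conventional synapses. Amacrine and ganglion cells make conventional terminals.

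Values were FPKM, fragment numbers scaled to transcript length and to library depth, summed over the transcripts of a gene. Differences are given as log2 ratios of mNRPCs to retina after 1 FPKM was added to each value, a scale that understates differences of low genes, and a gene was called lower or higher when this ratio was at least 1 in size. Depth, estimated from the values, came to 6.51e+06 fragments in mNRPCs and 5.04e+06 in retina. At 2 kb, 3 fragments equal 0.230 FPKM in the mNRPC library and 0.298 FPKM in the retina library, and values under this were treated as not detectable. Errors given as SE, and intervals given as 95%, come from the estimated fragments of a gene and cover counting error only. A gene at 0 is called listed at 0, since a 0 in such a table can be a failed estimate.

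The labels were checked against cell type markers. All 14 rod markers were lower in mNRPCs, with a summed level of 24.4 FPKM against 33506 FPKM in retina and none at 0. The 9 cone markers were also all lower, at 2.11 against 963 FPKM, with Pde6h and Cnga3 listed at 0, and so were the 8 bipolar cell markers, at 5.59 against 724 FPKM, with Grm6, Pcp2 and Vsx1 listed at 0. Of 8 amacrine cell markers 6 were lower and 1 higher (41.5 against 442 FPKM, Tfap2b and Chat listed at 0), and all 8 ganglion cell markers were lower (4.79 against 549 FPKM, Rbpms, Sncg and Nefh listed at 0). All 6 Müller glia markers were lower too (35.8 against 1800 FPKM, Kcnj10 listed at 0). So were the markers that could be compared of horizontal cells (2 of 4 on the list), pigment epithelium (4 of 6), endothelium (3 of 4) and microglia (1 of 5). Of 11 retinal progenitor markers 5 were higher, 4 lower and 2 within 2-fold in mNRPCs (846 against 367 FPKM). Among the transcription factors on this list, Sox2 was at 230.6 FPKM in mNRPCs and 18.5 FPKM in retina, Pax6 at 122.6 and 100.7 FPKM and Six3 at 39.7 and 33.2 FPKM, whereas Rax and Six6 were listed at 0 in mNRPCs. Among 4 fibroblast markers that could be compared, 2 were higher in mNRPCs and 2 were within 2-fold (457.6 against 5.63 FPKM over the list of 6, with Lum listed at 0 in both libraries). Col3a1 alone made up 449.8 FPKM of the mNRPC sum.

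All 41 genes reached 1 FPKM in retina and 36 of them reached 10 FPKM there. In mNRPCs 19 reached 1 FPKM and 7 reached 10 FPKM. Of the 41 genes, 37 were lower in mNRPCs, where 30.0% of the 13780 genes compared were lower, and 2 were higher, where 24.5% of all genes were higher. The median log2 ratio was -3.99, beside -0.12 over all genes compared. Their summed level was 316 FPKM in mNRPCs and 4373 FPKM in retina. When the 5 general trafficking genes are set apart, all of the other 36 genes were lower, with sums of 96.0 FPKM and 4156 FPKM, so that mNRPCs held 2.31% of the retina level. In a bulk sample, fewer cells of a type and less RNA per cell cannot be told apart. Most neuronal markers above and the Müller glia markers were lower along with these genes. The part of those cells in the differences was not tested.

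**Figure D1:**
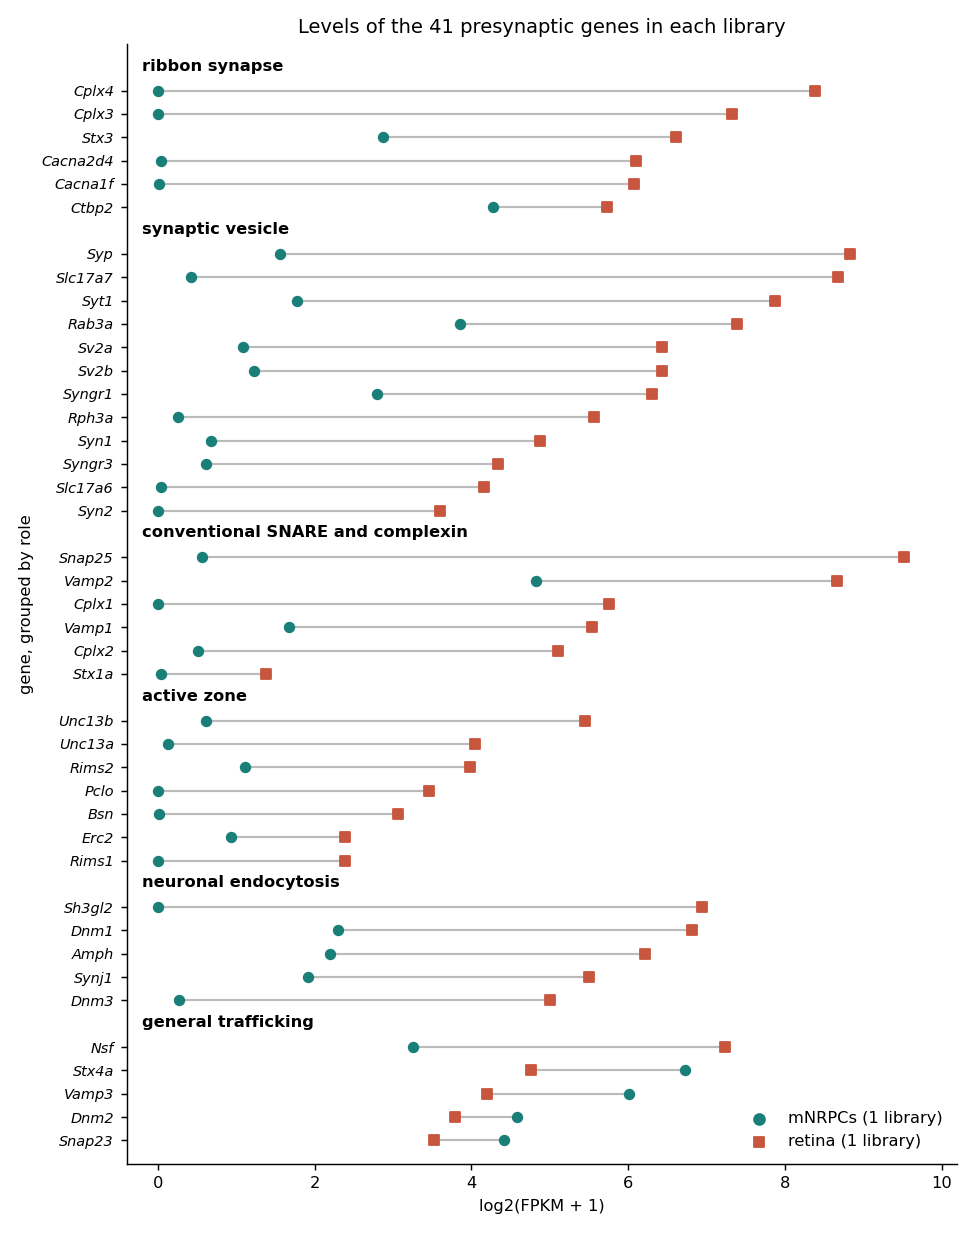
Level of each of the 41 genes as log2(FPKM + 1), in mNRPCs (circles) and in retina (squares), 1 library each, ordered by level in retina within each role; a grey line joins the values of a gene. The circle lies left of the square for 37 genes by at least 1 and right of it for Stx4a, Vamp3, Dnm2 and Snap23.

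All 6 ribbon synapse genes were lower in mNRPCs, with a median log2 ratio of -6.06. Their summed level was 24.6 FPKM in mNRPCs and 773 FPKM in retina, or 3.18% of the retina level, and most of the mNRPC sum was Ctbp2. Complexin 4 and complexin 3 are the clamp proteins of ribbon terminals. Cplx4 was at 331 FPKM in retina, the highest of the ribbon genes, and was listed at 0 in mNRPCs. Cplx3 was at 159 FPKM in retina and was also listed at 0 in mNRPCs. In retina both were among the 351 highest genes of the library. The L-type channel of photoreceptors contains the pore subunit encoded by Cacna1f and an accessory subunit encoded by Cacna2d4. Cacna1f was at 0.00938 FPKM in mNRPCs and 66.3 FPKM in retina, a level of 0.0142% with an upper 95% limit of 0.169%. Cacna2d4 was at 0.0270 FPKM in mNRPCs and 67.4 FPKM in retina, a level of 0.0401% (95% interval 0.00108% to 0.221%). Each of the mNRPC values is worth about 1 fragment or less, so neither subunit was detectable there at this depth.

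The remaining ribbon genes, Ctbp2 and Stx3, were detected in mNRPCs, and both have transcripts that code for different proteins. Ctbp2 was at 18.3 FPKM in mNRPCs and 51.9 FPKM in retina, a log2 ratio of -1.46 ± 0.09 (SE). The gene (GRCm38, chr7:132986998-133124009) yields the transcriptional corepressor CtBP2 and, from an internal promoter, RIBEYE, the scaffold of the ribbon. In the annotation the 2 curated forms share 8 coding exons. The RIBEYE form begins with an exon of its own with 1687 coding bases (chr7:133013518-133015204, minus strand) and has 988 codons, and the CtBP2 form begins with one of 58 coding bases (chr7:133025713-133025770, minus strand) and has 445 codons. The starts of both reading frames are shown because they are the coding exons in which these forms differ. Capitals mark the start codon, and the RIBEYE exon is given for its first 120 bases.

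RIBEYE first coding exon: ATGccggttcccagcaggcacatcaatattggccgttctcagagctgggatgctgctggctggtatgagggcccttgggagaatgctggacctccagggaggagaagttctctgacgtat
CtBP2 first coding exon: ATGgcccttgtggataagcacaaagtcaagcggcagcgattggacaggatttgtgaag

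The RIBEYE transcript (NM_001170744.1) was at 32.0 FPKM in retina, where it made up 61.5% of Ctbp2. In mNRPCs it was at 8.55e-06 FPKM, an estimate worth 0.000201 fragments, and so was not detectable. The CtBP2 transcript (NM_009980.4) was at 7.45 FPKM in mNRPCs and 6.38 FPKM in retina, a log2 ratio of 0.20. In mNRPCs the CtBP2 row made up 40.8% of Ctbp2 and predicted transcripts 59.2%. Whether a predicted transcript holds the RIBEYE exon was not checked. Because reads in the 8 shared exons are divided between transcripts by estimation, these shares are less certain than the sum of the gene. With curated rows only, the log2 ratio of Ctbp2 was -2.22.

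Stx3 encodes syntaxin 3, the plasma membrane SNARE of ribbon terminals, and was at 6.29 FPKM in mNRPCs and 96.6 FPKM in retina (log2 ratio -3.74 ± 0.13). Its 2 curated forms (chr19:11775118-11821569) share 8 coding exons and differ in the last 2, which encode the end of the SNARE domain and the membrane anchor. The first of these alternative exons has 111 bases in each form, at chr19:11782800-11782910 for syntaxin 3B and chr19:11783026-11783136 for syntaxin 3A on the minus strand. They are the same at 68 of 111 positions (61.3%), and capitals mark the 43 positions that differ.

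Syntaxin 3B exon: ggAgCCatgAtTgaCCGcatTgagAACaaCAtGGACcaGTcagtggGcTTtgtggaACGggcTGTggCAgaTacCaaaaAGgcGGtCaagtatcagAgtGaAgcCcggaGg
Syntaxin 3A exon: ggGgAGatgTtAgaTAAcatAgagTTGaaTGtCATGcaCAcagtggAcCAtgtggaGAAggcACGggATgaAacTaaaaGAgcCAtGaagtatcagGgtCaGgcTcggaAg

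Syntaxin 3B (NM_001025307.1), the form known from ribbon synapses, was at 1.31 FPKM in mNRPCs and 84.4 FPKM in retina, a log2 ratio of -5.21. Syntaxin 3A (NM_152220.2), the form of epithelial and other cells, was at 4.69 FPKM in mNRPCs and 5.86 FPKM in retina, a log2 ratio of -0.27. The 3B form made up 87.4% of Stx3 in retina and 20.9% in mNRPCs, and the 3A form 6.06% in retina and 74.6% in mNRPCs. As with Ctbp2, the curated row of the form known from the ribbon synapse was much lower in mNRPCs. The curated row of the other named form was within 2-fold. Without the 3B row, an alternative chosen after seeing the data, the other rows summed to 4.97 FPKM in mNRPCs and 12.2 FPKM in retina (log2 ratio -1.15), so Stx3 was still called lower. When accessions had to match with their version, 3A was the only row matched and the log2 ratio of the gene was -0.27.

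**Figure D2:**
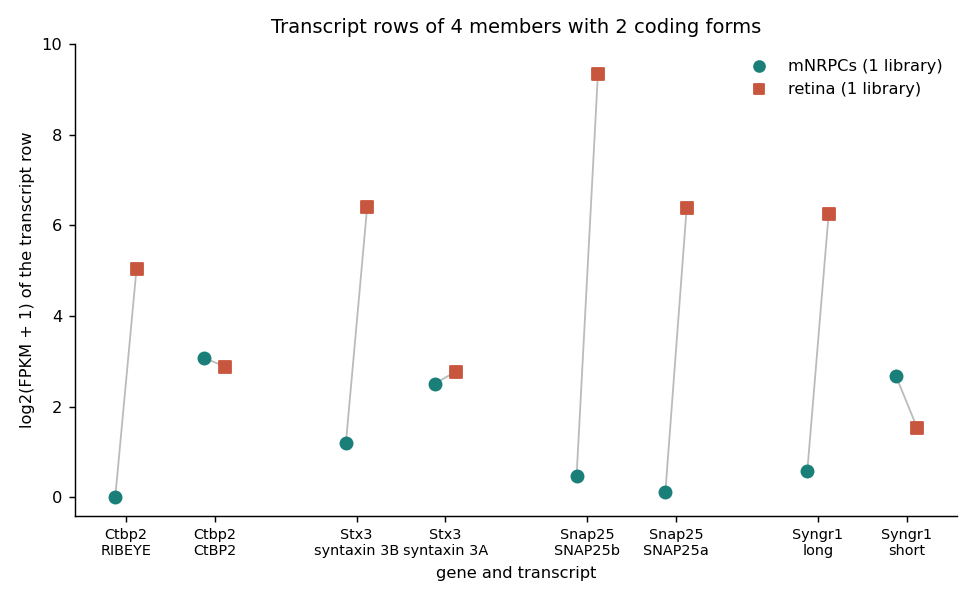
Level of single transcript rows as log2(FPKM + 1) in mNRPCs (circles) and retina (squares), 1 library each, for the 2 curated coding forms of Ctbp2, Stx3, Snap25 and Syngr1. RIBEYE, syntaxin 3B, both Snap25 forms and the long Syngr1 form lie far higher in retina, whereas CtBP2 and syntaxin 3A differ by less than 1 and the short Syngr1 form is higher in mNRPCs.

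The 12 synaptic vesicle genes were all lower in mNRPCs, with a median log2 ratio of -4.70 and sums of 27.8 FPKM against 1636 FPKM. Synaptophysin, a membrane protein of the vesicle encoded by Syp, was at 1.94 FPKM in mNRPCs and 455 FPKM in retina (log2 ratio -7.28 ± 0.17). Slc17a7, which encodes VGLUT1, the transporter that loads glutamate into vesicles of photoreceptors and bipolar cells, was at 0.339 FPKM in mNRPCs and 410 FPKM in retina (log2 ratio -8.26 ± 0.15). Slc17a6, which encodes VGLUT2, the transporter of ganglion cells, was at 0.0277 FPKM in mNRPCs and 16.8 FPKM in retina, a level of 0.165% (95% interval 0.00141% to 1.14%). VGLUT1 was the more abundant transporter in retina, and in mNRPCs its level rested on 6.43 estimated fragments and that of VGLUT2 on less than 1.

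Syt1 encodes synaptotagmin 1, the calcium sensor of fast release, and was at 2.41 FPKM in mNRPCs and 233 FPKM in retina (log2 ratio -6.10 ± 0.12). The vesicle glycoproteins Sv2a and Sv2b were close to each other in both libraries. Sv2a was at 1.12 FPKM in mNRPCs and 85.6 FPKM in retina (log2 ratio -5.35 ± 0.14). Sv2b was at 1.35 FPKM in mNRPCs and 85.5 FPKM in retina (log2 ratio -5.20 ± 0.12). The synapsins, which tether vesicles into a reserve pool and which ribbon terminals are known to lack, are encoded by Syn1 and Syn2. Syn1 was at 0.592 FPKM in mNRPCs and 28.2 FPKM in retina (log2 ratio -4.20 ± 0.17), and Syn2 was listed at 0 in mNRPCs and at 11.1 FPKM in retina.

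Rab3a, which encodes the small GTPase that marks secretory vesicles, kept the highest level of the vesicle genes in mNRPCs, at 13.4 FPKM against 167 FPKM in retina (log2 ratio -3.54 ± 0.13). Its effector rabphilin, encoded by Rph3a, was at 0.194 FPKM in mNRPCs and 46.1 FPKM in retina (log2 ratio -5.30 ± 0.12). The GTPase was therefore at 8.04% of its retina level (95% interval 6.64% to 9.67%) and its effector at 0.422% (0.134% to 0.9996%). The synaptogyrins are vesicle proteins related to synaptophysin. Syngr3 was at 0.523 FPKM in mNRPCs and 19.2 FPKM in retina (log2 ratio -3.73 ± 0.22), and Syngr1 at 5.91 FPKM in mNRPCs and 78.0 FPKM in retina (log2 ratio -3.51 ± 0.19).

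Syngr1 again differed by transcript. Its curated forms share 3 coding exons and differ in the last, which has 219 coding bases in the long form of 234 codons and 90 in the short form of 191 codons. The long form (NM_207708.1) was at 0.504 FPKM in mNRPCs and 74.7 FPKM in retina, a log2 ratio of -5.65. The short form (NM_009303.2) was at 5.38 FPKM in mNRPCs and 1.88 FPKM in retina, a log2 ratio of 1.15, and made up 91.0% of Syngr1 in mNRPCs against 2.41% in retina.

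The conventional SNARE and complexin genes were all lower in mNRPCs (6 of 6), with a median log2 ratio of -4.23. Snap25, which encodes the plasma membrane SNARE of nerve terminals (chr2:136713439-136782428), had the highest level of all 41 genes in retina and, with 1 FPKM added, the lowest log2 ratio. With 0.1 FPKM added, Cplx4 (-11.69) and Cplx3 (-10.64) were lower than Snap25 (-10.29). It was at 0.482 FPKM in mNRPCs and 730 FPKM in retina (log2 ratio -8.95 ± 0.19), so that mNRPCs held 0.0661% of the retina level (95% interval 0.0244% to 0.143%). Its 2 curated forms share 6 coding exons and carry 1 of a pair of alternative exons of 118 bases, at chr2:136770057-136770174 for SNAP25b, the adult neuronal form, and chr2:136769743-136769860 for SNAP25a, the form that comes first in development. The pair is shown because the ratio of these exons changes as neurons mature. The exons are the same at 87 of 118 positions (73.7%), and capitals mark the 31 that differ.

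SNAP25b exon: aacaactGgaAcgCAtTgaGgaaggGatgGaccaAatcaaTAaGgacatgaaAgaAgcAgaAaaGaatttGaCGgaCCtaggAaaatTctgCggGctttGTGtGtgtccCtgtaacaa
SNAP25a exon: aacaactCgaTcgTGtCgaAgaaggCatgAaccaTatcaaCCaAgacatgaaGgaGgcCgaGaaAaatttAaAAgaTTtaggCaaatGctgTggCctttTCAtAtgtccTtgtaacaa

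The SNAP25b transcript (NM_011428.3) was at 0.399 FPKM in mNRPCs and 648 FPKM in retina, and the SNAP25a transcript (NM_001291056.1) at 0.0832 FPKM in mNRPCs and 82.2 FPKM in retina. Unlike Ctbp2, Stx3 and Syngr1, both forms of Snap25 were lower in mNRPCs, by log2 ratios of -8.86 and -6.26. SNAP25b made up 88.7% of Snap25 in retina. Its share of 82.7% in mNRPCs rests on 5.50 and 0.549 estimated fragments of the 2 forms, which is too few to order the shares.

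The vesicle SNAREs Vamp1 and Vamp2 encode synaptobrevins. Vamp2 was at 27.3 FPKM in mNRPCs and 404 FPKM in retina (log2 ratio -3.84 ± 0.07). It had the highest level in mNRPCs of the 36 genes outside general trafficking. Vamp1 was at 2.18 FPKM in mNRPCs and 45.6 FPKM in retina (log2 ratio -3.87 ± 0.16). Stx1a encodes syntaxin 1A, the plasma membrane SNARE of conventional terminals, and was low in both libraries, at 0.0248 FPKM in mNRPCs and 1.60 FPKM in retina (log2 ratio -1.34 ± 0.22). It was the lowest of the 41 genes in retina, where Stx3 was at 96.6 FPKM. Complexins 1 and 2 are the forms of conventional terminals. Cplx1 was listed at 0 in mNRPCs and at 52.9 FPKM in retina, and Cplx2 was at 0.427 FPKM in mNRPCs and 33.4 FPKM in retina (log2 ratio -4.59 ± 0.13). In retina the order of the complexins was Cplx4, Cplx3, Cplx1 and Cplx2, and in mNRPCs Cplx2 was the only one of the 4 above 0.

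The 7 active zone genes, which encode large scaffold and priming proteins, were all lower in mNRPCs with a median log2 ratio of -3.05. They summed to 2.70 FPKM in mNRPCs and 98.8 FPKM in retina, where they ranged from 4.21 to 42.8 FPKM. The scaffold bassoon, which anchors ribbons to the active zone, is encoded by Bsn, at 0.00745 FPKM in mNRPCs and 7.34 FPKM in retina, a level of 0.101% (95% interval 0.00101% to 0.681%). Pclo, which encodes piccolo, a scaffold of the ribbon and of conventional zones, was at 0.000478 FPKM in mNRPCs and 9.96 FPKM in retina, with an upper 95% limit of 0.312% of the retina level. Neither scaffold reached 1 estimated fragment in mNRPCs, although both transcripts are long.

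RIM proteins link vesicles to calcium channels. Rims1 reached 4.21 FPKM in retina and was listed at 0 in mNRPCs. Rims2, the RIM known from photoreceptors, was at 1.16 FPKM in mNRPCs and 14.8 FPKM in retina (log2 ratio -2.87 ± 0.17), and its leading transcript was the same in both libraries. The Munc13 proteins prime vesicles for fusion. Unc13b, known from photoreceptors, was at 0.528 FPKM in mNRPCs and 42.8 FPKM in retina (log2 ratio -4.84 ± 0.13), and Unc13a was at 0.0903 FPKM in mNRPCs and 15.6 FPKM in retina (log2 ratio -3.93 ± 0.07). Most of the Unc13b signal in retina lay in predicted transcripts, and with curated rows only its log2 ratio was -1.97. Erc2, which encodes the scaffold CAST, had the ratio closest to 0 of the active zone genes, at 0.911 FPKM in mNRPCs and 4.23 FPKM in retina (log2 ratio -1.45 ± 0.15). Its signal was spread over 23 rows, and with curated rows only it was under 1 FPKM in both libraries and was not compared.

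The 5 neuronal endocytosis genes were lower in mNRPCs with a median log2 ratio of -4.51. Endophilin A1, encoded by Sh3gl2, bends the neck of the budding vesicle. Sh3gl2 was listed at 0 in mNRPCs and at 122 FPKM in retina, the highest of this group. Dnm1 and Dnm3 encode the neuronal dynamins, which cut the vesicle from the membrane. Dnm1 was at 3.91 FPKM in mNRPCs and 111 FPKM in retina (log2 ratio -4.51 ± 0.12), and Dnm3 at 0.200 FPKM in mNRPCs and 31.1 FPKM in retina (log2 ratio -4.74 ± 0.11). Amphiphysin, encoded by Amph, brings dynamin to the coat, and was at 3.56 FPKM in mNRPCs and 73.3 FPKM in retina (log2 ratio -4.02 ± 0.13). Synj1 encodes synaptojanin 1, the lipid phosphatase that strips the coat, and was at 2.76 FPKM in mNRPCs and 44.3 FPKM in retina (log2 ratio -3.59 ± 0.10). Apart from Sh3gl2 and Dnm3, these genes kept between 3.52% and 6.22% of their retina level.

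Dnm1 had another leading transcript in each library. In mNRPCs 88.5% of its level was in the curated row NM_010065.3, which was at 3.46 FPKM there and 0.657 FPKM in retina. In retina the leading row was a predicted transcript at 39.3 FPKM that was listed at 0 in mNRPCs. With curated rows only, the log2 ratio of Dnm1 was -1.26. Of the 19 genes at 1 FPKM or more in mNRPCs, 14 had several transcript rows, and in 10 of these (71.4%, beside 31.0% of the 6272 genes with several rows and at least 1 FPKM in both libraries) the leading row of mNRPCs was not that of retina (Amph, Ctbp2, Dnm1, Dnm2, Snap23, Stx3, Sv2b, Syngr1, Synj1 and Vamp1). For Sv2b, Vamp1 and Amph the row that led in mNRPCs held 32.4%, 31.1% and 30.9% of the gene in retina, and for Synj1 0.893%.

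The 5 general trafficking genes formed the only group whose median was above 0 (log2 ratio 0.89), with sums of 220.1 FPKM in mNRPCs and 216 FPKM in retina. Stx4a, which encodes syntaxin 4, the plasma membrane SNARE of most non-neuronal cells, was at 104.8 FPKM in mNRPCs and 26.2 FPKM in retina (log2 ratio 1.96 ± 0.11). Vamp3, which encodes cellubrevin, the vesicle SNARE of recycling endosomes, was at 63.6 FPKM in mNRPCs and 17.4 FPKM in retina (log2 ratio 1.82 ± 0.11). Snap23, the broadly expressed relative of Snap25, was at 20.3 FPKM in mNRPCs and 10.5 FPKM in retina (log2 ratio 0.89 ± 0.13). Dnm2, the dynamin of all cells, was at 22.9 FPKM in mNRPCs and 12.8 FPKM in retina (log2 ratio 0.79 ± 0.11). All 4 had higher values in mNRPCs, but Snap23 and Dnm2 stayed under the 2-fold threshold and passed it with curated rows only (log2 ratios 1.83 and 1.33). Nsf, which encodes the ATPase that takes spent SNARE complexes apart in every cell, went the other way and was lower, at 8.50 FPKM in mNRPCs and 149.5 FPKM in retina (log2 ratio -3.99 ± 0.09).

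To set neuronal genes beside their broadly expressed relatives, 16 pairs were formed by family. The pairs were chosen with earlier results of these data known, so their shares are a description and not a separate check. By the values, the share of the neuronal gene in the summed FPKM of its pair was lower in mNRPCs than in retina in all 16 pairs. For Unc13a with Unc13d this rests on too few fragments to be ordered. The pairs include Ctbp2 with Ctbp1 (14.2% in mNRPCs and 48.7% in retina). Ctbp2 is counted there as the neuronal gene, although its sum also holds the corepressor form CtBP2. The neuronal gene held over 50% in 13 pairs in retina and in 2 pairs in mNRPCs. For the plasma membrane SNAREs, Snap25 held 98.6% beside Snap23 in retina and 2.32% in mNRPCs. For the vesicle SNAREs, Vamp2 held 95.9% beside Vamp3 in retina and 30.1% in mNRPCs. For the dynamins, Dnm1 held 89.7% beside Dnm2 in retina and 14.6% in mNRPCs.

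Among vesicle proteins, Syp held 94.0% beside its relative Sypl in retina and 5.32% in mNRPCs, and Syngr1 held 95.4% beside Syngr2 in retina and 10.5% in mNRPCs. The 2 pairs in which the neuronal gene held over 50% in mNRPCs were Rab3a with Rab3d, at 93.7% in mNRPCs, and Unc13a with Unc13d, at 66.0%. In the latter pair the mNRPC values rest on 6.03 and 1.202 estimated fragments. Which gene leads there, and whether the share was lower than in retina, could therefore not be told at this depth. Syntaxin 1A was the minor partner of syntaxin 4 in both libraries, at 5.76% in retina and 0.0236% in mNRPCs. In every pair the neuronal gene was itself lower in mNRPCs by at least 2-fold. Of the 14 broad genes in the pairs, 3 were higher (Stx4a, Vamp3 and Syngr2) and 1 was lower (Unc13d). With curated rows only, the share was lower in 14 of the 16 pairs.

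**Figure D3:**
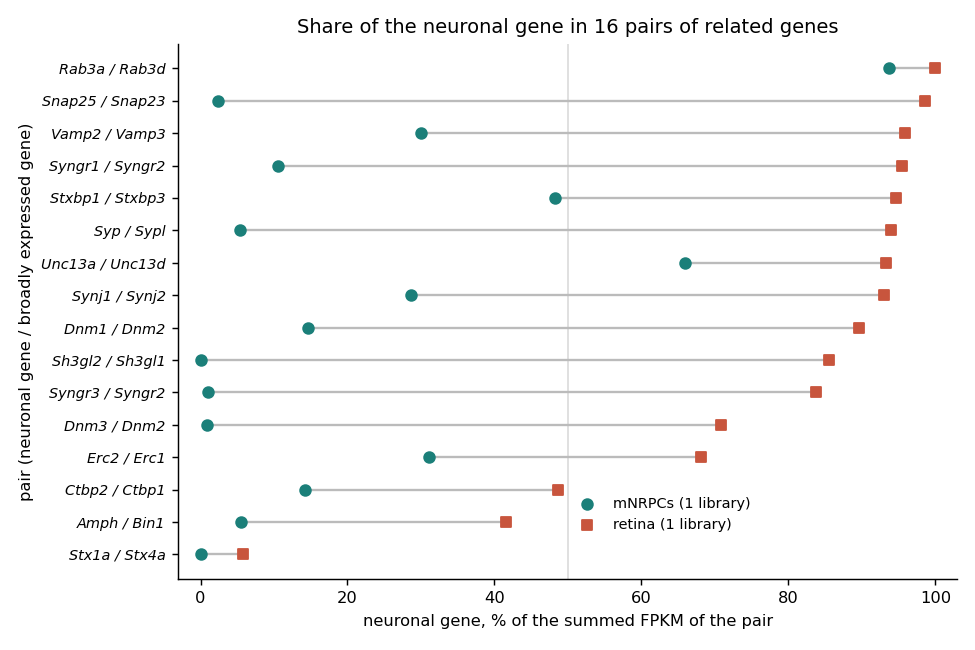
Share of the neuronal gene in the summed FPKM of each of the 16 pairs, in percent, for mNRPCs (circles) and retina (squares), 1 library each; the vertical line marks 50%. Every circle lies left of its square, with small gaps for Stx1a with Stx4a (0.0236% against 5.76%) and for Rab3a with Rab3d (93.7% in mNRPCs) and the widest for Snap25 with Snap23 (2.32% against 98.6%).

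The same contrast was measured in a wider list of 48 other neuronal presynaptic genes and a list of 48 other broadly expressed SNARE and trafficking genes. Of the neuronal list, 47 could be compared, 43 were lower in mNRPCs and none was higher, with a median log2 ratio of -2.83. Over all genes compared, 30.0% were lower and 24.5% were higher. The lowest ratios among genes over 10 FPKM belonged to Cabp4, Snap91 and Cacnb2. Cabp4, the calcium-binding protein that tunes the photoreceptor channel, was at 0.00835 FPKM in mNRPCs and 196 FPKM in retina. Snap91, the clathrin adaptor AP180, was at 0.156 FPKM in mNRPCs and 103.7 FPKM in retina, and Cacnb2, the beta subunit of the same channel, was listed at 0 in mNRPCs and at 54.8 FPKM in retina. With Cacna1f and Cacna2d4, these 3 subunits of the photoreceptor channel and its regulator were thus below 1 FPKM in mNRPCs. The highest ratios among genes over 10 FPKM were those of Cacna2d1 (20.9 FPKM in mNRPCs and 12.9 FPKM in retina), Stxbp5 (14.6 and 24.9 FPKM) and Dnajc5 (19.8 and 75.5 FPKM).

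Of the broad list, 46 could be compared, 6 were lower, 6 were higher and 34 were within 2-fold, with a median log2 ratio of 0.24. The shares over all genes compared were 30.0% lower, 24.5% higher and 45.6% within 2-fold. Syngr2, a synaptogyrin of non-neuronal cells, was at 50.4 FPKM in mNRPCs and 3.72 FPKM in retina (log2 ratio 3.45). Snap47 was at 16.8 FPKM in mNRPCs and 1.01 FPKM in retina (log2 ratio 3.15), and Stx2 at 20.2 FPKM in mNRPCs and 3.22 FPKM in retina (log2 ratio 2.33). The lowest ratios among genes over 10 FPKM were those of Napg, a partner of NSF (11.98 FPKM in mNRPCs and 44.7 FPKM in retina), Ap2a2 (17.4 and 55.3 FPKM) and Syt11 (19.7 and 46.4 FPKM).

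**Figure D4:**
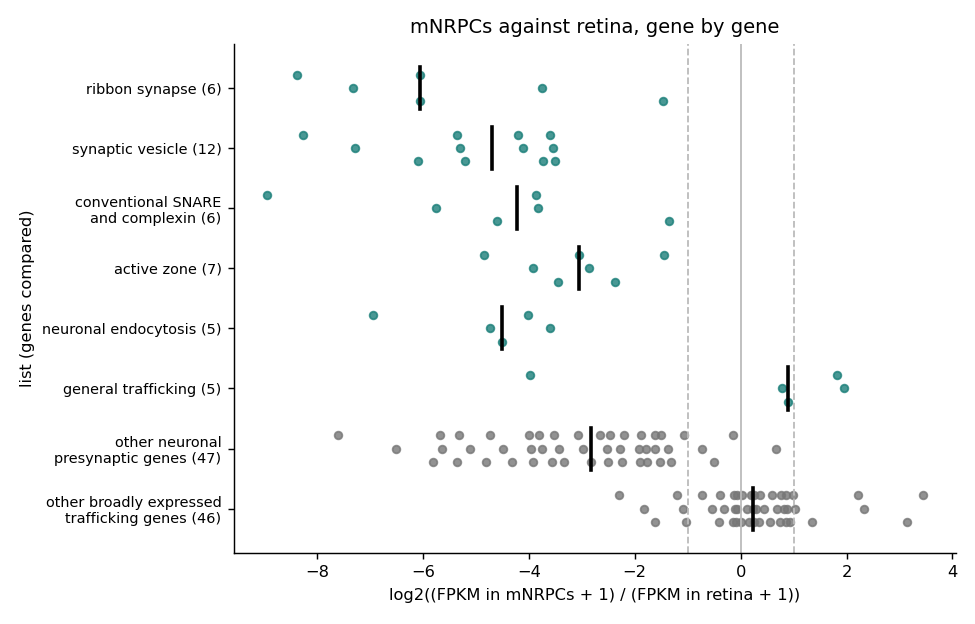
The log2 ratio of each gene, mNRPCs against retina with 1 FPKM added, for the 6 roles of the 41 genes (coloured) and the 2 wider lists (grey); each point is a gene, the black bar is the median, and dashed lines mark a 2-fold difference. The medians lie between -6.06 and -2.83 for the neuronal groups and at 0.89 and 0.24 for the broadly expressed groups.

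The presynaptic genes were also set beside the 14 rod markers. The rod markers were at a median of 0.0521% of their retina level in mNRPCs, with a range from 0.00702% to 0.641%. No fragment limit was set for these markers. In mNRPCs Rcvrn, Cnga1, Gngt1 and Nr2e3 rested on only 0.903, 1.48, 1.97 and 2.82 estimated fragments. The lower end of the rod range is the value of Gngt1 and is therefore not exact. The upper end is that of Rom1, which rests on 111 estimated fragments. Of the 29 genes over 3 estimated fragments in mNRPCs, 5 lay within the rod range (Snap25, Slc17a7, Rph3a, Syp and Unc13a) and 24 above it. This limit leaves out the lowest levels, and for genes low in retina it can itself lie above the rod range. The 2 counts therefore do not show how the genes as a whole lie beside the rod markers. Without the limit, 25 of the 41 genes were above the range, 9 within it and 1 below it, and 6 were listed at 0. The 12 genes at or under the limit, 6 of them listed at 0, were too low for an exact position. Upper 95% limits of Cplx4, Cplx3, Sh3gl2, Cacna1f, Cacna2d4, Pclo and Cplx1 ran from 0.0943% to 0.491%, under the top of the rod range. Those of Bsn, Slc17a6, Syn2, Rims1 and Stx1a were above it. For genes listed at 0, such a limit holds only if the 0 is not a failed estimate. Snap25 at 0.0661% and Slc17a7 at 0.0827% (95% interval 0.0316% to 0.176%) were close to the rod median. Rab3a, Rims2, Syngr1, Vamp2, Stx3 and Synj1 were at 6.22% to 8.04%, Erc2 at 21.5% and Ctbp2 at 35.2% (30.8% to 40.0%). For Ctbp2, Stx3 and Syngr1 these levels were mostly those of rows other than the curated RIBEYE, syntaxin 3B and long Syngr1 transcripts. Without a pseudocount, 23 of the 29 genes over 3 estimated fragments in mNRPCs were at least 10-fold lower than in retina, beside 5.54% of all 12002 genes over that limit.

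**Figure D5:**
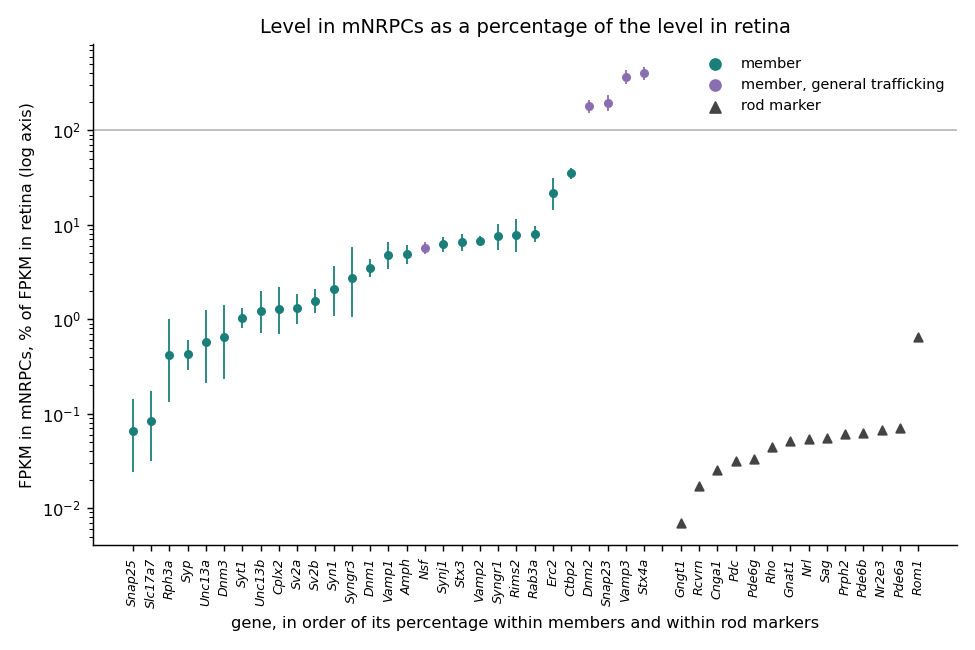
Level in mNRPCs as a percentage of the level in retina, on a log axis. Circles, with 95% counting intervals, are the 29 genes over 3 estimated fragments in mNRPCs. Triangles, without intervals, are the 14 rod markers, for which no fragment limit was set. The horizontal line marks equal levels. Snap25 and Slc17a7 lie at the level of the rod markers, most genes between 0.4% and 10%, and Snap23, Dnm2, Vamp3 and Stx4a above 100%.

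Promoter sequence was available for 34 of the 41 genes, as 45 windows of 300 bases (250 before to 50 after the start site) from RefSeq on GRCm38.p6. Median GC content was 60.3% in these windows and 52.7% in the 32851 windows of all genes. Motifs were searched on both strands as exact letters. TAATCC, the core bound by the photoreceptor factor CRX, was in 5 of the 45 windows (Ctbp2, Stx3, Syp and 2 of Sv2b), beside 7.06% of all windows. TTCAGCACC and GGACAGCGC, the left and right parts of the element bound by the neuronal repressor REST, were in 2 windows (Syn1 and Unc13a, beside 0.371% of all) and in 1 window (Unc13a, beside 0.405%). TGACGTCA, the palindromic element bound by CREB, was in 2 windows (Syn1 and Sh3gl2, beside 1.79%). These are counts of letters and do not show binding.

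Windows are shown, for the internal start of Ctbp2 from which RIBEYE is made (chr7:133015248-133015497, minus strand), for Syn1 (chrX:20920919-20921168, minus strand) and for Unc13a from 5 to 30 bases after its start (chr8:71671727-71671752, minus strand). Capitals mark the motifs, read on either strand. The Ctbp2 window holds TAATCC on the opposite strand at position -121 from the start site, and the Syn1 window holds TTCAGCACC at position -232 and TGACGTCA at position -159. The Unc13a stretch holds GGACAGCGC and TTCAGCACC, both on the opposite strand.

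Ctbp2 RIBEYE start, upstream 250 bases: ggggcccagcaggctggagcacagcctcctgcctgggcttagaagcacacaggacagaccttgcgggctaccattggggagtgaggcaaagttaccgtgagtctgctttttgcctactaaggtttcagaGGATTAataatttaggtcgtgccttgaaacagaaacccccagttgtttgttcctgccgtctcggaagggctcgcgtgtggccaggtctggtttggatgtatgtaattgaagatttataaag
Syn1 start, upstream 250 bases: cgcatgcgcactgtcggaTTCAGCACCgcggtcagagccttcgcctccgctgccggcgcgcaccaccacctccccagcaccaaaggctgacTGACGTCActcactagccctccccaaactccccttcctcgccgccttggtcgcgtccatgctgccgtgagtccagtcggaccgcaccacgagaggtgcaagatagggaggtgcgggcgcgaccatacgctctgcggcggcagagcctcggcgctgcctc
Unc13a start, 26 bases downstream: GCGCTGTCCgcgcccccGGTGCTGAA

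Summed over transcripts, the genes whose windows held these letters did not share a level in mNRPCs. Of the TAATCC genes, Stx3 was at 6.29 FPKM there and Syp and Sv2b at 1.94 and 1.35 FPKM. The Ctbp2 sum was 18.3 FPKM, but it covers all transcripts of the gene and not only those that start at the Ctbp2 window. The curated RIBEYE transcript was at 8.55e-06 FPKM in mNRPCs and was not detectable. Predicted transcripts made up 59.2% of Ctbp2 there, and whether any of them starts at this window was not checked. Of the genes with a REST part, Syn1 was at 0.592 FPKM and Unc13a at 0.0903 FPKM in mNRPCs.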

How the data were processed

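RNA sequencing values of 2 samples were used, 1 mNRPC library and 1 retina library, grouped by their labels. The authors deposited 1 table of FPKM per RefSeq transcript. Per the study's methods, reads were aligned with Bowtie 2 and FPKM calculated with eXpress on BGISEQ-500 data, whereas the series text names a HiSeq 2500 and the submitters' processing notes name TopHat, TopHat2 2.0.10 and GRCm38.p3. The annotation release is not given in the sources used here. Because reads that fit several transcripts are divided by estimation, transcript values are less certain than gene sums. Which of these tools made the values could not be settled.

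Accessions were matched without version to the RefSeq gene table of GRCm38.p6, then to GENCODE M21, which gave a symbol to 74283 of 106754 rows (69.6%, holding 93.2% of the mNRPC and 89.9% of the retina FPKM), and rows were summed to 31253 genes. FPKM below 1e-06 were read as 0. Genes with at least 1 FPKM in a library were compared (13780) on log2(FPKM + 1) at a threshold of 1. Fragments per library were estimated from the lowest FPKM multiplied by length of 6228 single-transcript genes, and intervals (95%) from these estimates. The scripts were tested on simulated data. Python 3.11.15, numpy 2.4.6, pandas 2.3.3, scipy 1.17.1 and matplotlib 3.10.9 were used.

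The 41 genes and all lists, pairs and motifs were chosen with earlier results of these data known. All 41 genes, the genes of the pairs and, of the wider lists, the 3 highest and 3 lowest log2 ratios among genes over 10 FPKM are named, and markers by their counts and those listed at 0. Further genes were named after their values were seen. Alternatives were the pseudocount, 4 rescalings, row matching, filters and the threshold. Exons were read from GENCODE M21 on GRCm38 and promoters from RefSeq on GRCm38.p6, patch releases of one assembly that share chromosome coordinates with GRCm38.p3.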

Additional observations from a re-analysis of the deposited data

How the results depend on the processing

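With 1 library a group, errors cover counting only, and culture, tissue make-up, library preparation and sequencing cannot be told apart. No paired analysis was possible because either group had only 1 library. The direction of all 41 genes was kept wherever they could be compared, in 358 values under 9 alternatives, of which 106 moved by more than 1.96 counting SE and none reversed. Between 29 and 37 genes were at least 2-fold lower under every alternative run, the lowest count coming from 34 matched genes. At a log2 threshold of 2, 34 were lower (14.1% of all genes) and 0 were higher, and curated rows, or accessions matched with version, gave 4 higher instead of 2 (Snap23, Stx4a, Vamp3 and Dnm2). With 0.1 FPKM added in place of 1, the median log2 ratio was -5.89 for all 41 genes, -9.15 for ribbon synapse, -6.33 for synaptic vesicle, -6.09 for active zone and -4.85 for other neuronal presynaptic genes. Accessions matched with version gave -3.52 for neuronal endocytosis, and a minimum of 5 FPKM gave -3.81 for other neuronal presynaptic genes. Rescaling each library to a sum of 1e6 shifted the median over all genes compared to -0.68 (from -0.12) and turned the median of the other broadly expressed SNARE and trafficking genes to -0.24, and relative to that shift Stx4a and Vamp3 stayed higher (1.47 and 1.34 before it is taken off). The causes were not tested beyond the dropped rows. The neuronal share was lower in 14 of 16 pairs with curated rows and in 11 of 12 pairs with versioned accessions. Depth came to 6.33e+06 to 6.51e+06 fragments for mNRPCs and 4.86e+06 to 5.29e+06 for retina over the minimum lengths tried, and genes under 3 fragments could not be ordered.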

Other observations

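Within the wider neuronal list, most members of each family described here were lower in mNRPCs. Of 9 synaptotagmins other than Syt1, 8 were lower and 6 were listed at 0 in mNRPCs (Syt2, Syt4, Syt5, Syt6, Syt9 and Syt10), and Syt12 was within 2-fold at 0.589 FPKM in mNRPCs and 1.25 FPKM in retina. Syt4, a synaptotagmin of dense-core vesicles, was the most abundant of them in retina at 49.99 FPKM. All 3 neurexins, the presynaptic adhesion receptors, were lower, with sums of 0.0790 FPKM in mNRPCs and 40.5 FPKM in retina, and so were the 3 liprin-alpha genes (0.413 against 25.2 FPKM). Of 8 further calcium channel subunits 7 were lower and Cacna2d1 was not, and Cacna2d1 made up 20.9 of their 23.9 FPKM in mNRPCs. Chga, Chgb, Scg2 and Scg3, the granins of dense-core secretory granules, are not on the wider neuronal list. They were all lower, summing to 0.298 FPKM in mNRPCs and 381 FPKM in retina, and each was at or under 3 estimated fragments in mNRPCs.

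Among the broadly expressed genes, members of a family lay on both sides. Over all genes compared, 45.6% were within 2-fold. Of 8 clathrin and AP2 subunits 6 were within 2-fold, with sums of 730 FPKM in mNRPCs and 643 FPKM in retina, and Ap2s1 was higher and Ap2a2 lower. Of 8 further syntaxins 5 were within 2-fold, Stx2 and Stx7 were higher and Stx16 was lower, with sums of 165 FPKM and 162 FPKM. Unc119, a lipid-binding protein of photoreceptors, had the highest retina level of the wider neuronal list, at 1315 FPKM against 31.0 FPKM in mNRPCs, where it was also the highest of that list.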
